A study of Mus musculus with 9 samples.

Results

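The genes of the insulin-like growth factor (IGF) system described here are the ligand Igf1, the receptors Igf1r and Igf2r, and the binding proteins Igfbp2, Igfbp3, Igfbp4, Igfbp5, Igfbp6 and Igfbp7, chosen by name from the family. Of 10 listed family genes, 9 were measured, among 22851 genes in the count matrix, and Igf2 was not analysed here. All 9 passed the low-count filter in all 3 comparisons. A gene passed the test with an adjusted p below 0.05 in edgeR's quasi-likelihood test over all genes, and was a differentially expressed gene (DEG) if its fold change was also at least 1.5. Igfbp3 was upregulated in DCM hearts compared to CK hearts (1.68-fold), and Igf1 did not pass the test in any comparison. Igfbp7 fell stepwise from CK to DCM to SPM, but the 2 steps no longer passed under 3 and 2 of 15 alternative analyses. Its fall in SPM compared to CK passed under all 15.

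Heart RNA of C57BL/6 mice was sequenced in 9 libraries, 3 per group. CK mice received citrate buffer. DCM mice received a single dose of streptozotocin, a toxin of the insulin-producing beta cells, at 180 mg/kg and were kept for 12 weeks. SPM mice received the same streptozotocin and also spermine, a polyamine, at 1 mg/kg, daily for 2 weeks before it and every other day for the 12 weeks after it. The methods give male C57BL/6J mice aged 6 to 8 weeks at the start. No genetic change is named for any group. No group received spermine without streptozotocin, so SPM hearts can be set against untreated and diabetic hearts only. The methods give 3 mice per group for RNA and elsewhere 18 hearts mixed in sixes, which leaves unsettled if each library came from 1 animal or from 6 hearts together, and p-values measure the spread between these libraries. Streptozotocin also acts outside the beta cell, and DCM and SPM share it.

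IGF-1 is a small secreted hormone, made mostly in the liver under growth hormone and locally in many tissues, that acts through the receptor tyrosine kinase encoded by Igf1r and supports growth and survival of heart muscle. Igf2r encodes a receptor without kinase activity that carries mannose 6-phosphate tagged enzymes to lysosomes and removes IGF-2 from the cell surface. The binding proteins hold IGFs in blood and tissue fluid and set how much ligand reaches the receptor, and IGFBP-7 binds IGFs only weakly and is found in the walls of blood vessels.

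The promoter windows of the 2 members that became DEGs in any comparison, Igfbp3 and Igfbp7, and of the receptor gene Igf1r are printed first, so that the genes that moved can be seen beside each other. Each is the run of 250 bases just before the RefSeq transcription start (build GRCm38.p6), read 5′ to 3′ on the strand of the gene. They are chr11:7213924-7214173 (minus strand) for Igfbp3, chr5:77408046-77408295 (minus strand) for Igfbp7 and chr7:67952007-67952256 (plus strand) for Igf1r. Capitals mark the GC box GGGCGG, which Sp1-type factors bind, with its reverse CCGCCC, and the core ACGTG of hypoxia response elements, with its reverse CACGT.
Igfbp3: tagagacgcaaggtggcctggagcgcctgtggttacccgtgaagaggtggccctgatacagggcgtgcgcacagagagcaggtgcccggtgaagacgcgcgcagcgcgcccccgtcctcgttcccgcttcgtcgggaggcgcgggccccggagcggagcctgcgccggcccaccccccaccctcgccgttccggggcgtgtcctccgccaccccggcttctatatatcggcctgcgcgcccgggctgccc
Igfbp7: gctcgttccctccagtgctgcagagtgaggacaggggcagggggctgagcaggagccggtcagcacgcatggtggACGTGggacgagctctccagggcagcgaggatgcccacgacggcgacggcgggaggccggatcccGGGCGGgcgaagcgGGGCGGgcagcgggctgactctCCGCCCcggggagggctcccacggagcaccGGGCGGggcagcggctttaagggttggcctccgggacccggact
Igf1r: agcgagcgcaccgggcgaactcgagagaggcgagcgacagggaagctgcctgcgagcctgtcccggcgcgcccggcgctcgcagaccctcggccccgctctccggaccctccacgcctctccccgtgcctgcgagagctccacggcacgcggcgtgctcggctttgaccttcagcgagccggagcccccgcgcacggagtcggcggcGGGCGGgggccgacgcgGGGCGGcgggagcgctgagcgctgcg
The Igfbp7 window held 4 GC boxes and 1 ACGTG core, the Igf1r window held 2 GC boxes, and the Igfbp3 window held neither motif. Of 32851 windows of this length, 32.7% held a GC box and 16.6% an ACGTG core, so neither match is rare. The FoxO site GTAAACA, searched on both strands and held by 3.17% of windows, was not found in these 3 windows. The same was so of the TATA box TATAAA, which 12.4% of windows held on either strand. All 9 measured members had a window. TATAAA occurred on the gene's strand in that of Igfbp4, 28 bases before the start, and only as its reverse TTTATA in that of Igfbp6, 148 bases before it. Both motifs also occurred at members with no call, as the window of Igf2r held 3 GC boxes and 4 ACGTG cores and the first of 2 windows of Igfbp2 held 3 GC boxes and 2 cores, where CACGTG counts as a core on each strand. The windows of Igf1, Igfbp4, Igfbp5 and Igfbp6 held neither of these. The matches are strings of letters and no binding was measured.

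Total counts per library were 29901300 to 39718680. Heart muscle genes were high in all libraries (7 of 10 listed markers were in the table, together 37717 to 51082 CPM, counts scaled to a common library total), and retinal markers, looked at because the deposited extraction text speaks of retinas, were near 0 (9 in the table, together 1.93 to 4.80 CPM). The mitochondrial share of counts ran from 13.7% to 16.2% in CK libraries, from 15.5% to 18.9% in DCM libraries and from 21.0% to 21.1% in SPM libraries. SPM replicate 2 lay between SPM replicates 1 and 3 for 66.3% of 14909 genes, against 15.6% to 38.7% for each other library within its group, and so it did for 8 of the 9 members, all but Igfbp4. Calls of members and named pathway genes in comparisons with SPM are therefore given with and without it. Marker values, most values without a call, and the sums, shares and ratios of FPKM are given with it only. No member without a call gained one when it was left out. The log2 fold change of a gene in SPM compared to DCM moved with its GC content (Spearman's rho -0.50 across 14484 genes, which are not independent), less so in SPM compared to CK (-0.37) and hardly in DCM compared to CK (0.06), and calls of the named genes that were lost with a correction for GC content are given with the gene.

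Levels of different genes can be set beside each other per gene length only, as FPKM (fragments per kilobase of gene, scaled to the library total). Igfbp7 was the most abundant member, with a mean of 139.0 FPKM over the 9 libraries (97.0 to 192.9). Igfbp4 followed with 71.4 FPKM (64.98 to 89.3), and its libraries did not overlap those of Igfbp7. Igfbp5 (42.2 FPKM), Igfbp6 (37.6 FPKM), Igf2r (35.2 FPKM) and Igfbp3 (31.9 FPKM) formed a middle rank whose ranges over libraries overlapped, so their order does not exceed their spread. Igf1r was far lower at 4.54 FPKM (3.68 to 5.26), Igf1 stood at 1.403 FPKM (1.04 to 1.80), and Igfbp2 was lowest at 0.316 FPKM (0.0219 to 0.595). Within a gene the highest library was 1.25 times the lowest for Igf2r and 2.65 times the lowest for Igfbp3, and Igfbp2, with 1 to 27 counts per library, spread most.

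**Figure D1:**
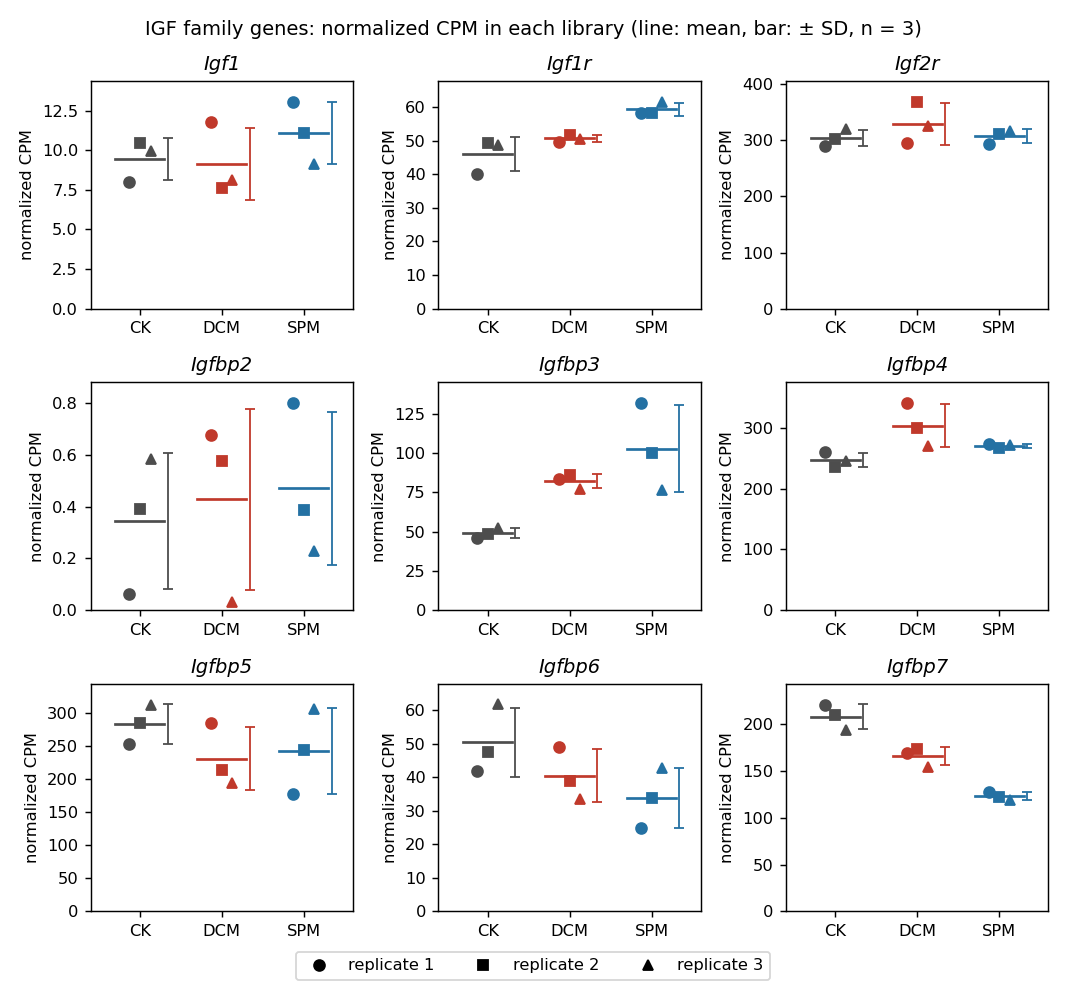
Normalized CPM (y axis from 0) of the 9 members in each library of CK, DCM and SPM, with the group mean (line) and SD (bar, n = 3) and the replicate number as the symbol. Igfbp7 descends from CK to SPM without overlap, and the 3 DCM libraries of Igfbp3 (77.1 to 85.9) all lie above the 3 CK libraries (46.1 to 52.6).

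The ligand Igf1 (ENSMUSG00000020053, chromosome 10: 87858265 to 87937042 in GRCm38, plus strand) was low in the heart. Its CPM, normalized by the TMM factors of the libraries, were 7.97, 10.5 and 9.96 in CK, 11.8, 7.58 and 8.12 in DCM, and 13.1, 11.1 and 9.12 in SPM. The groups overlapped throughout. The log2 fold change was -0.04 (SE 0.18, edgeR adjusted p = 0.92) in DCM compared to CK, 0.27 (SE 0.18, adjusted p = 0.318) in SPM compared to DCM and 0.22 (SE 0.16, adjusted p = 0.315) in SPM compared to CK. With the GC correction the last 2 turned to -0.09 and -0.13. The summed level of 9 macrophage markers, cells that make Igf1, was 603.7, 545.0 and 456.7 CPM in CK, 451.3, 387.1 and 395.3 in DCM, and 743.6, 591.7 and 456.1 in SPM. Its order over the libraries was that of Igf1 in DCM and SPM but not in CK, where the library with the highest sum had the lowest Igf1, and its part in the Igf1 values was not tested. In bulk tissue, fewer cells of a type and less RNA per cell cannot be told apart.

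The receptor gene Igf1r (ENSMUSG00000005533, chromosome 7: 67952827 to 68233668, plus strand) was highest in SPM hearts. Its CPM were 40.02, 49.3 and 48.6 in CK, 49.7, 51.7 and 50.5 in DCM, and 58.2, 58.2 and 61.5 in SPM. The SPM libraries lay above all others, and the DCM libraries lay just above those of CK. Igf1r rose in SPM compared to DCM by 0.23 on the log2 scale (SE 0.06, edgeR adjusted p = 0.0385) and in SPM compared to CK by 0.36 (SE 0.09, adjusted p = 0.0181), both below a fold of 1.5. In DCM compared to CK the log2 fold change was 0.14 (SE 0.09, adjusted p = 0.362). The call in SPM compared to DCM was lost under 11 of 15 alternatives, among them each library left out in turn (0.20 to 0.24 on the log2 scale) and the GC correction (0.23, adjusted p = 0.0579). The call in SPM compared to CK was lost under 3 of 15, which were the omission of SPM replicate 2 (0.38, adjusted p = 0.0628) and both limma fits on FPKM (adjusted p = 0.0822 and 0.0843), and with each library left out the value was 0.27 to 0.41. Without SPM replicate 2 the value against DCM was 0.24 (adjusted p = 0.158).

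Igf2r (ENSMUSG00000023830, chromosome 17: 12682406 to 12769664, minus strand), an imprinted gene expressed from the maternal copy in most mouse tissues, had no call in any comparison. Its CPM were 289.7, 301.2 and 318.9 in CK, 294.6, 368.1 and 324.1 in DCM, and 292.6, 311.4 and 316.8 in SPM, with all groups overlapping. The log2 fold changes were 0.12 (SE 0.09, edgeR adjusted p = 0.452) in DCM compared to CK, -0.10 (SE 0.09, adjusted p = 0.445) in SPM compared to DCM and 0.01 (SE 0.06, adjusted p = 0.901) in SPM compared to CK. The FPKM of Igf1r was 0.118 ± 0.00993 (SD, n = 3) times that of Igf2r in CK, 0.121 ± 0.0109 in DCM and 0.151 ± 0.00472 in SPM, and the SPM ratios (0.146 to 0.155) lay above all others.

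Among the binding proteins, Igfbp3 (ENSMUSG00000020427, chromosome 11: 7206086 to 7213923, minus strand) had the largest log2 fold change in both comparisons with CK. It encodes the main IGF carrier of the blood, which forms a complex with IGF and the acid-labile subunit. Its CPM were 46.1, 48.3 and 52.6 in CK, 83.3, 85.9 and 77.1 in DCM, and 132.1, 100.3 and 76.4 in SPM. All DCM and SPM libraries lay above all CK libraries, while SPM replicate 3 fell just below the lowest DCM library. Igfbp3 was upregulated in DCM compared to CK by 0.75 on the log2 scale (SE 0.08, edgeR adjusted p = 1.12e-04, 1.68-fold) and in SPM compared to CK by 1.07 (SE 0.17, adjusted p = 0.00341, 2.09-fold). Both calls held under all 15 alternatives, with log2 fold changes of 0.63 to 0.80 and 0.85 to 1.24. The latter was 1.09 without SPM replicate 2 (adjusted p = 0.013).

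Igfbp3 did not pass the test in SPM compared to DCM (log2 fold change 0.33, SE 0.16, edgeR adjusted p = 0.164). That value turns on single SPM libraries, since it was 0.49 (adjusted p = 0.00947) without SPM replicate 3 and 0.10 (adjusted p = 0.547) without SPM replicate 1. The coefficient of variation of the CPM was 27.1% in SPM, 5.56% in DCM and 6.69% in CK.

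Igfbp7 (ENSMUSG00000036256, chromosome 5: 77349240 to 77408041, minus strand), the vascular binding protein, went the other way. Its CPM were 220.8, 209.7 and 194.2 in CK, 169.6, 173.5 and 154.9 in DCM, and 128.1, 122.2 and 119.3 in SPM. No library of one group overlapped another group. Igfbp7 fell by 0.33 on the log2 scale in DCM compared to CK (SE 0.08, edgeR adjusted p = 0.0173) and by 0.43 in SPM compared to DCM (SE 0.07, adjusted p = 0.0105), both below a fold of 1.5. It was downregulated as a DEG in SPM compared to CK, by 0.76 (SE 0.06, adjusted p = 4.06e-04), which is 0.59 times the CK level.

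The fall of Igfbp7 in SPM compared to CK passed the test under all 15 alternatives (log2 fold change -0.86 to -0.58) but came just under the fold limit with the GC correction (-0.58). It was -0.75 without SPM replicate 2 (adjusted p = 0.00366). The call in DCM compared to CK was lost without CK replicate 1 (-0.28, adjusted p = 0.0524), CK replicate 2 (-0.32, adjusted p = 0.0688) or DCM replicate 3 (-0.27, adjusted p = 0.077). The call in SPM compared to DCM was lost without SPM replicate 2 (-0.42, adjusted p = 0.0566) and with the GC correction (-0.24, adjusted p = 0.0571), and the longest transcript of Igfbp7 is 58.8% GC.

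The last exon of Igfbp7 overlaps that of the RNA polymerase II subunit gene Polr2b on the other strand by 85 bases, 7.03% of its exonic bases, and reads there could count for either gene because the counting strand is not given. Polr2b stood at 75.6 ± 2.34 CPM in CK, 72.7 ± 7.67 in DCM and 74.7 ± 3.25 in SPM (SD, n = 3), with edgeR adjusted p of 0.747 to 0.80. Of the cell types of the vessel wall and stroma, 10 endothelial markers summed to between 2288 and 2608 CPM in CK, 2266 and 2555 in DCM, and 2096 and 2335 in SPM, and 9 mural markers to between 1474 and 1624, 1498 and 1659, and 1493 and 1526. Single endothelial markers did not all move as their sum did, and in SPM compared to CK 1 of the 10 passed as higher (Vwf, 0.65, edgeR adjusted p = 0.00129) and 3 as lower, Cdh5 (-0.33), Tie1 (-0.63) and Cldn5 (-1.29). Of the 10, only the receptor gene Tie1 stepped down over the groups without overlap. Its CPM were 341.5, 286.6 and 283.2 in CK, 240.5, 252.1 and 226.0 in DCM, and 184.0, 196.8 and 208.6 in SPM, where Igfbp7 ran in the opposite order. The other endothelial markers did not step down in this way, as with Tek (mean CPM of 140.8, 112.2 and 122.9 in CK, DCM and SPM) and Pecam1 (409.1, 457.1 and 435.8). Of the 9 mural markers, 1 passed as higher and 4 as lower in SPM compared to CK, though the ranges of their sum overlapped. Among the 9, Kcnj8 also stepped down over the groups without overlap. Its CPM were 101.2, 80.7 and 81.7 in CK, 71.7, 79.5 and 77.8 in DCM, and 64.2, 66.2 and 63.4 in SPM. Abcc9 ran the other way, with mean CPM of 407.2, 430.2 and 461.1 in CK, DCM and SPM. The 9 measured fibroblast markers summed to between 2143 and 2233 CPM in CK, 1459 and 1546 in DCM, and 1700 and 1778 in SPM. Single fibroblast markers also differed, and in SPM compared to CK 2 of these 9 passed as higher and 5 as lower. Beside these counts of the 3 marker lists, 27.4% of all genes passed in that comparison. Mean CPM in CK, DCM and SPM were 795.2, 773.8 and 992.1 for Dcn, the largest part of the sum, and 229.2, 109.9 and 97.8 for Col1a1. The part of these cells in the Igfbp7 values was not tested.

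Igfbp4 (ENSMUSG00000017493, chromosome 11: 99041244 to 99054392, plus strand), whose protein holds back IGF until a protease of the pappalysin family cleaves it, was higher in every DCM library than in any CK library. Its CPM were 260.1, 236.1 and 246.4 in CK, 341.3, 299.8 and 270.3 in DCM, and 274.2, 267.5 and 271.3 in SPM. The log2 fold change of 0.30 in DCM compared to CK missed the test (SE 0.09, edgeR adjusted p = 0.0529) and passed under 6 of 15 alternatives, DESeq2 (adjusted p = 0.00951) and the omission of DCM replicate 3 (0.38, adjusted p = 0.0243) among them, and with each library left out it was 0.21 to 0.38. It was -0.17 (SE 0.09, adjusted p = 0.197) in SPM compared to DCM and 0.13 (SE 0.05, adjusted p = 0.118) in SPM compared to CK, the latter 0.25 (adjusted p = 0.00821) with the GC correction.

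Igfbp5 (ENSMUSG00000026185, chromosome 1: 72857932 to 72874884, minus strand) encodes a binding protein that sticks to extracellular matrix. Its CPM were 253.0, 284.5 and 313.1 in CK, 285.1, 213.5 and 194.7 in DCM, and 177.4, 244.1 and 306.7 in SPM, with overlap between all groups. No comparison passed: the log2 fold changes were -0.29 (SE 0.13, edgeR adjusted p = 0.174), 0.07 (SE 0.18, adjusted p = 0.818) and -0.23 (SE 0.17, adjusted p = 0.347) in DCM compared to CK, SPM compared to DCM and SPM compared to CK. The first was -0.47 (adjusted p = 0.0179) without DCM replicate 1 and -0.18 (adjusted p = 0.458) without DCM replicate 3. The last was -0.43 (adjusted p = 0.0447) without SPM replicate 3 and -0.05 (adjusted p = 0.804) without SPM replicate 1.

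Igfbp6 (ENSMUSG00000023046, chromosome 15: 102144362 to 102149511, plus strand), whose protein prefers IGF-2, had CPM of 42.0, 47.6 and 61.8 in CK, 49.1, 39.0 and 33.4 in DCM, and 24.9, 33.8 and 42.8 in SPM. The SPM libraries were mostly lowest but SPM replicate 3 overlapped CK. The log2 fold changes were -0.31 (SE 0.15, edgeR adjusted p = 0.218) in DCM compared to CK, -0.26 (SE 0.18, adjusted p = 0.333) in SPM compared to DCM and -0.58 (SE 0.20, adjusted p = 0.0568) in SPM compared to CK. With each library left out these were -0.47 to -0.14, -0.47 to -0.09 and -0.79 to -0.40, the values nearest 0 coming without CK replicate 3 in the first and without SPM replicate 1 in the other two. The last passed under 6 of 15 alternatives, among them the omission of SPM replicate 3 (-0.79, adjusted p = 0.0124).

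Igfbp5 and Igfbp6 ranked the libraries alike within every group (Pearson's r 0.88 over the 9 libraries, given as a description). The same order within groups was seen for the summed level of 8 mesothelial markers, the surface layer of the heart, with 56.4, 74.0 and 105.5 CPM in CK, 93.8, 55.5 and 42.2 in DCM and 35.5, 71.3 and 102.5 in SPM. Single markers did not all follow that order. Upk3b and Msln kept it in every group, while Wt1 ran 7.17, 8.53 and 8.01 CPM in SPM and Muc16 2.49, 3.05 and 1.26 in DCM. In SPM, replicate 2 lay between the other libraries for 66.3% of all genes, so a shared order there is common. The part of mesothelial cells in the levels of Igfbp5 and Igfbp6 was not tested.

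Igfbp2 (ENSMUSG00000039323, chromosome 1: 72824503 to 72852474, plus strand), a carrier made mainly outside the heart, was close to the limit of detection. It had 2, 14 and 18 counts in CK, 27, 17 and 1 in DCM, and 26, 12 and 7 in SPM. Its libraries overlapped fully, and its log2 fold changes of 0.31, 0.14 and 0.44 had standard errors of 0.84, 0.75 and 0.71 (edgeR adjusted p = 0.873, 0.917 and 0.674), each larger than the change itself.

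**Figure D2:**
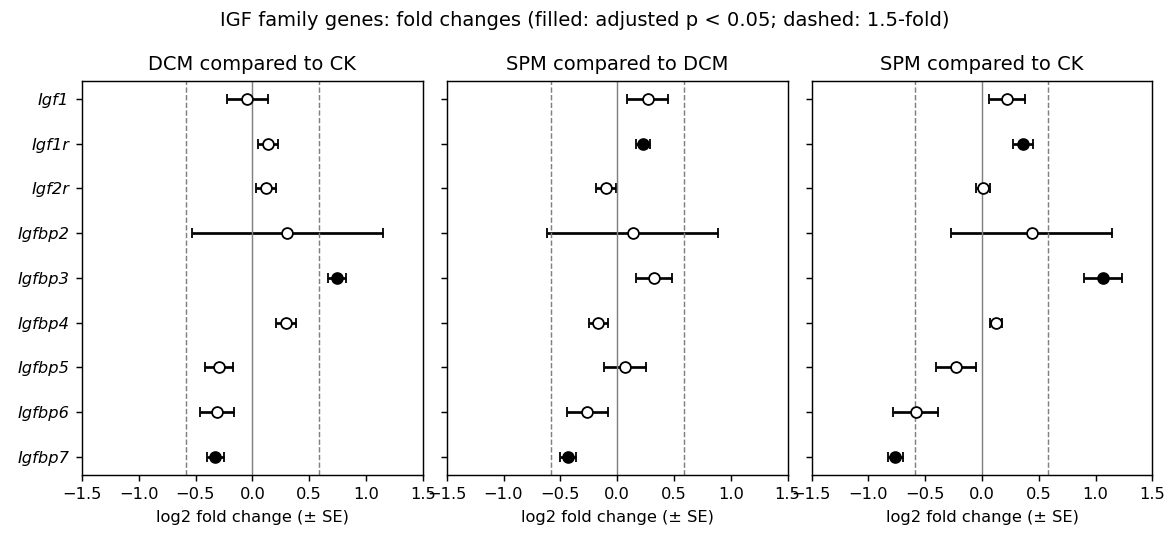
Log2 fold change with its SE (x axis) of the 9 members (y axis) in the 3 comparisons, with filled symbols for an adjusted p below 0.05 and dashed lines at a fold of 1.5. Igfbp3 lies past the line in DCM compared to CK and in SPM compared to CK, and Igfbp7 lies left of 0 in all 3 and past the line in SPM compared to CK.

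In DCM compared to CK, 2 of the 9 members passed the test, Igfbp3 up and Igfbp7 down, and 1 of them was a DEG. Over all 14402 genes tested, 10.4% passed and 4.34% were DEGs. Between SPM and DCM, 2 members passed, Igf1r up and Igfbp7 down, and none was a DEG by edgeR (2 members had an unadjusted p below 0.05) or by DESeq2, against 16.6% and 3.59% of 14493 genes. Between SPM and CK, 3 members passed, Igf1r and Igfbp3 up and Igfbp7 down, and 2 were DEGs, against 27.4% and 9.21% of 14574 genes. With 9 members, these shares cannot be set apart from those of all genes.

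The libraries of the groups did not overlap for 4, 2 and 4 of the 9 members in DCM compared to CK, SPM compared to DCM and SPM compared to CK, and for 29.3%, 39.2% and 46.3% of all genes tested. The median size of the log2 fold change of the members was 0.30, 0.23 and 0.36, beside 0.17, 0.21 and 0.24 over all genes. Comparisons of DCM with CK and of SPM with DCM share the 3 DCM libraries, and their values for a gene are given side by side with no test between them.

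**Figure D3:**
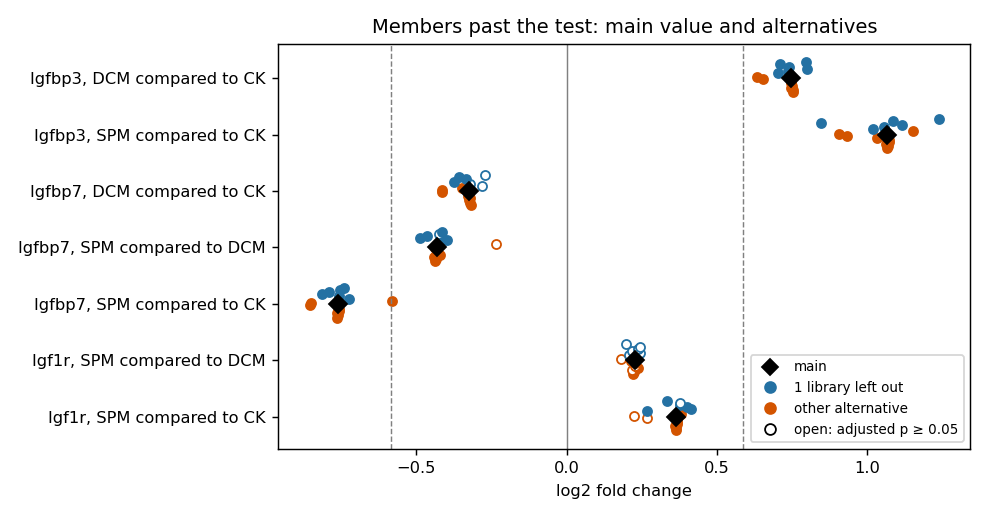
Log2 fold changes (x axis) of Igfbp3, Igfbp7 and Igf1r in the comparisons in which they passed the test (y axis), as the main value (diamond), with 1 library left out (blue) and under other alternatives (orange), open where the adjusted p was 0.05 or more. Igfbp3 keeps filled symbols in both comparisons, as does Igfbp7 in SPM compared to CK, whereas Igf1r in SPM compared to DCM is mostly open.

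The makeup of the binding protein RNA differed between the groups, mostly in its most abundant gene, Igfbp7. The 6 binding proteins together held 366.8 ± 1.18 FPKM in CK, 321.0 ± 35.4 in DCM and 279.8 ± 4.16 in SPM (SD, n = 3). The sums were 368.0, 365.6 and 366.9 in CK, 357.6, 318.4 and 286.9 in DCM and 277.1, 277.6 and 284.6 in SPM. In FPKM every SPM library lay below every DCM library and these below every CK library. FPKM lacks the TMM factors, which were 1.049, 1.055 and 1.031 in CK and 1.002 in DCM replicate 1. The place of DCM replicate 1 below CK depends on that scaling, and the sums were not tested. Without Igfbp7 the sums were 185.5 ± 13.1, 185.2 ± 28.1 and 179.7 ± 7.16 FPKM, and the groups overlapped.

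Igfbp7 made up 49.4% ± 3.59 of that sum in CK, 42.5% ± 2.49 in DCM and 35.8% ± 1.65 in SPM (SD, n = 3), without overlap between the groups. The share of Igfbp3 was 5.76% ± 0.335 in CK, 10.4% ± 0.671 in DCM and 14.8% ± 4.15 in SPM, where it reached 19.1% in replicate 1. Igfbp4 went from 18.4% ± 0.84 in CK to 24.2% ± 0.634 in DCM and 24.6% ± 0.403 in SPM. The FPKM of Igfbp7 was 9.66, 8.75 and 7.45 times that of Igfbp3 in the CK libraries, 4.11, 4.07 and 4.05 times in the DCM libraries and 1.96, 2.46 and 3.15 times in the SPM libraries. These shares restate the levels above as parts of a whole, with no test of their own.

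**Figure D4:**
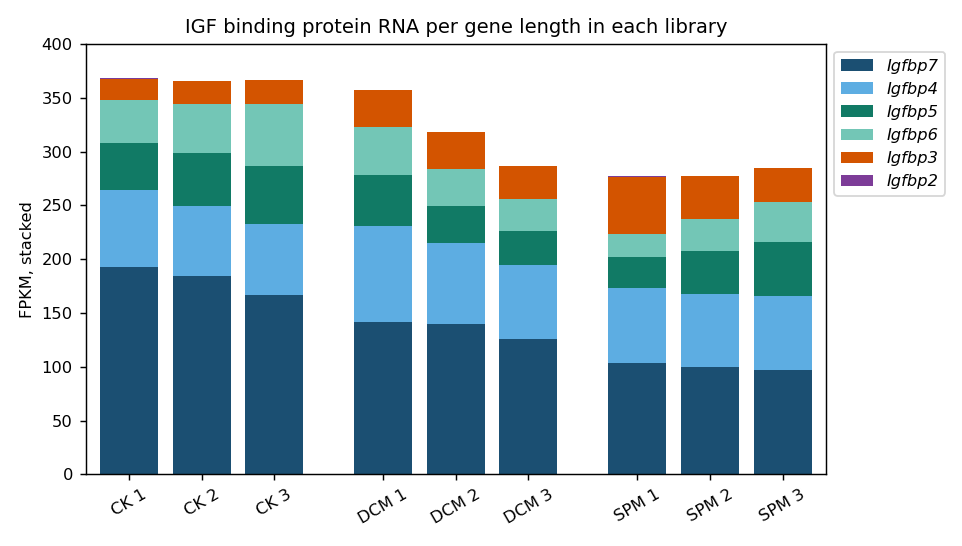
FPKM of the 6 binding proteins stacked for each library (y axis from 0, libraries on the x axis). The Igfbp7 block shrinks from CK to DCM to SPM, the Igfbp3 block is thicker in every DCM and SPM library than in any CK library, and the Igfbp2 block is too thin to see in most libraries.

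The genes whose log2 CPM followed a member most closely over the 9 libraries were looked up among 14908 others. They were Mta1, Rabl6 and Tubb2a for Igfbp7 (Pearson's r 0.997, 0.996 and 0.993), Cnbp, Tef and Dbi for Igfbp3 (0.989, 0.981 and 0.978), Acsl4, Zfp148 and Uspl1 for Igf1r (0.986, 0.977 and 0.972), and Cmss1, 4930562C15Rik and Snrnp48 for Igf1 (0.967, 0.92 and 0.918). Among the members, Igf1r and Igfbp7 ran opposite (-0.91), as did Igfbp3 and Igfbp7 (-0.82). The points share libraries and groups, and so many genes were searched that these values describe likeness in these 9 libraries only.

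Of the genes that release or carry IGF, 10 of 11 listed were in the table. Igfbp1, the binding protein of the liver that insulin represses, had 1 count in 1 CK library, 0 in DCM, and 35, 8 and 0 counts in SPM, too few for the filter. The summed level of 10 liver markers was 390.9, 192.3 and 31.0 CPM in those SPM libraries and 14.9 to 54.6 CPM in CK and DCM, and its part in the Igfbp1 counts was not tested. Igfals, which encodes the acid-labile subunit, stood at 6.80 ± 0.788 CPM in CK, 7.62 ± 0.87 in DCM and 7.88 ± 1.36 in SPM (SD, n = 3), with edgeR adjusted p of 0.553, 0.848 and 0.342 in DCM compared to CK, SPM compared to DCM and SPM compared to CK.

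Stc2, which encodes stanniocalcin-2, an inhibitor of the pappalysin proteases that cleave IGFBP-4, rose in DCM compared to CK by 0.33 on the log2 scale (SE 0.09, edgeR adjusted p = 0.0406), a call lost in 8 of 15 alternatives, among them the omission of each library other than CK replicate 1. It rose in SPM compared to CK by 0.47 (SE 0.08, adjusted p = 0.00416), and by 0.47 (adjusted p = 0.0273) without SPM replicate 2. Pappa2, which encodes such a protease, had 28, 41 and 27 counts in CK, 60, 57 and 53 in DCM, and 66, 62 and 48 in SPM. It rose by 0.93 in SPM compared to CK (SE 0.27, edgeR adjusted p = 0.0364) and had no call in DCM compared to CK. Igfbpl1, which encodes a relative of the binding proteins, had 16, 33 and 26 counts in CK, 6, 34 and 5 in DCM, and 8, 9 and 9 in SPM. It fell by 1.45 in SPM compared to CK (SE 0.41, edgeR adjusted p = 0.0303). Without SPM replicate 2, Pappa2 (0.88, adjusted p = 0.165) and Igfbpl1 (-1.49, adjusted p = 0.133) no longer passed. Both were also lost without SPM replicate 1 and without CK replicate 3, Pappa2 without CK replicate 1 as well, and Igfbpl1 without CK replicate 2 or SPM replicate 3 and by DESeq2 (adjusted p = 0.0607). Igfbpl1 was lost as well with the GC correction (-1.33, adjusted p = 0.0513). None of the 6 tested in SPM compared to DCM passed by edgeR or DESeq2 (0 at an unadjusted p below 0.05), where 16.6% of all genes passed by edgeR. Of 7 tested in DCM compared to CK, 1 passed, where 10.4% of all genes did. Of 7 tested in SPM compared to CK, 2 passed as higher and 1 as lower, where 27.4% of all genes passed.

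Of receptor partners and IGF-related RNA-binding genes, 7 of 8 listed were in the table and 5 were tested in each comparison. The imprinted long non-coding RNA H19, best known from fetal tissue, had CPM of 46.6, 50.2 and 61.4 in CK, 136.1, 91.8 and 90.1 in DCM, and 91.0, 113.7 and 135.2 in SPM. All DCM and SPM libraries lay above CK. H19 rose by 1.01 in DCM compared to CK (SE 0.15, edgeR adjusted p = 0.0011) and by 1.10 in SPM compared to CK (SE 0.15, adjusted p = 0.00192), the latter 1.10 (adjusted p = 0.00937) without SPM replicate 2, and both calls held under all 15 alternatives. Insr, the insulin receptor gene, rose by 0.40 in SPM compared to CK (SE 0.06, adjusted p = 0.0034) and by 0.39 without SPM replicate 2 (adjusted p = 0.0254). None of the 5 passed in SPM compared to DCM by edgeR or DESeq2 (1 at an unadjusted p below 0.05), where 16.6% of all genes passed by edgeR. In DCM compared to CK 1 of the 5 passed and in SPM compared to CK 2, where 10.4% and 27.4% of all genes passed.

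Growth hormone acts through its receptor, the kinase JAK2 and STAT5, and SOCS2 damps that signal. All 9 of the genes in the table were tested. In DCM compared to CK none passed by edgeR or DESeq2 (1 at an unadjusted p below 0.05). By edgeR, 10.4% of all genes passed there, 16.6% in SPM compared to DCM and 27.4% in SPM compared to CK. Between SPM and DCM, Ghr (0.30, SE 0.08, edgeR adjusted p = 0.0317), Jak2 (0.34, SE 0.08, adjusted p = 0.0255) and Socs2 (0.51, SE 0.13, adjusted p = 0.0298) rose and Stat5a fell by 0.40 (SE 0.09, adjusted p = 0.0204). Ghr had CPM of 92.4, 79.1 and 97.3 in DCM and 111.3, 110.7 and 109.7 in SPM. None of these 4 passed without SPM replicate 2 (adjusted p = 0.126, 0.109, 0.0756 and 0.0961), and with the GC correction none passed and Ghr was at 0.02. All 4 were also lost without DCM replicate 1 and without DCM replicate 2. Against CK, Socs2 rose by 0.52 (SE 0.13, adjusted p = 0.0192) and Stat5b fell by 0.25 (SE 0.07, adjusted p = 0.0352), and without SPM replicate 2 only Socs2 passed (0.56, adjusted p = 0.0474). Socs2 was lost without CK replicate 1 or 3, and Stat5b without each library but SPM replicate 3 and with the GC correction (-0.16, adjusted p = 0.138).

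Below the IGF-1 receptor, which shares its cascade with the insulin receptor, 26 of 27 genes were tested. In DCM compared to CK, 4 rose and 2 fell, where 10.4% of all genes passed. Pik3r1, the main regulatory subunit of PI3-kinase, had CPM of 65.4, 68.4 and 85.9 in CK, 116.6, 140.3 and 168.2 in DCM, and 181.3, 157.4 and 141.3 in SPM, and rose by 0.95 (SE 0.13, edgeR adjusted p = 6.1e-04). The CK libraries lay below all others. Foxo3, a transcription factor that AKT holds out of the nucleus, rose by 0.59 (SE 0.11, adjusted p = 0.00432), and Eif4ebp1, a translation inhibitor under mTOR, by 0.61 (SE 0.08, adjusted p = 4.77e-04). These 3 genes passed the test under all 15 alternatives. Over these, Foxo3 ran from 0.48 to 0.70 and Eif4ebp1 from 0.51 to 0.66, so both fell under the 1.5-fold limit in some. Pik3r2, with 32, 28 and 24 counts in CK, 90, 136 and 38 in DCM and 57, 44 and 272 in SPM, rose by 1.62 (SE 0.45, adjusted p = 0.0408), a call lost in 8 of 15 alternatives, among them the omission of CK replicates 2 or 3 or of DCM replicates 1 or 2 (0.977 to 1.995 over all left-out libraries). Irs1, the docking protein of both receptors, fell by 0.50 (SE 0.11, adjusted p = 0.0148, lost without CK replicate 2, DCM replicate 1 or DCM replicate 3), and Grb10, an imprinted adaptor that inhibits both receptors, fell by 0.39 (SE 0.08, adjusted p = 0.00671).

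In SPM compared to DCM, where 16.6% of all genes passed, 1 of the same 26 genes rose, Rictor (0.44, SE 0.09, edgeR adjusted p = 0.0161), and 3 fell, Irs2 (-0.39, SE 0.10, adjusted p = 0.028), Tsc2 (-0.33, SE 0.09, adjusted p = 0.0384) and Eif4ebp1 (-0.36, SE 0.10, adjusted p = 0.0428). Eif4ebp1 had CPM of 160.3, 143.1 and 148.3 in CK, 224.7, 249.7 and 213.5 in DCM, and 207.0, 175.3 and 155.3 in SPM, with SPM below DCM in each library. Without SPM replicate 2 none of these 4 genes passed (adjusted p = 0.0668 to 0.15, and 0 of the 26 by edgeR), and the same was so for these 4 with the GC correction. Each of the 4 was also lost without DCM replicate 1 and without DCM replicate 2.

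Between SPM and CK, 5 of the 26 rose and 5 fell, where 27.4% of all genes passed. The list was not tested against all genes. The DEGs were Pik3r1 (1.12, SE 0.12, edgeR adjusted p = 0.00106), Pik3r2 (2.21, SE 0.68, adjusted p = 0.0407, lost without any CK library and without SPM replicate 3, when it was 0.87) and Foxo3 (0.63, SE 0.10, adjusted p = 0.0034). Without SPM replicate 2 these 3 were at 1.14, 2.62 and 0.64 (adjusted p = 0.0048, 0.0272 and 0.0159). Foxo3 passed the test under all 15 alternatives at 0.52 to 0.73, the lowest of which is under the fold limit. Irs1 fell by 0.58 (SE 0.08, adjusted p = 0.00219), and by 0.62 (adjusted p = 0.0123) without SPM replicate 2. Grb10 fell by 0.25 (SE 0.06, adjusted p = 0.0147, and adjusted p = 0.076 without SPM replicate 2). Without that library, 3 of the 26 passed as higher and 1 as lower.

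Of 8 further secreted proteins with an IGFBP-type fold that were tested, none passed in DCM compared to CK by edgeR or DESeq2 (1 at an unadjusted p below 0.05). By edgeR, 1 of the 8 passed in each comparison with SPM. Over all genes, 10.4% passed in DCM compared to CK, 16.6% in SPM compared to DCM and 27.4% in SPM compared to CK. Ccn1, a matrix protein of the CCN family, fell by 0.56 in SPM compared to DCM (SE 0.13, edgeR adjusted p = 0.0238, and adjusted p = 0.0796 without SPM replicate 2), and Ccn2, connective tissue growth factor, rose by 0.33 in SPM compared to CK (SE 0.08, adjusted p = 0.0146, and adjusted p = 0.0544 without SPM replicate 2). Htra3, a protease and the most abundant of these genes by the mean over the 9 libraries, stood at 82.0 ± 3.15 FPKM in CK, 79.4 ± 1.04 in DCM and 69.0 ± 3.08 in SPM (SD, n = 3), with no call, and Ccn2 was at 70.3 FPKM in SPM. In TMM-normalized CPM, the scale of the tests, Htra3 was at 215.8 in CK, 222.6 in DCM and 194.8 in SPM, so CK and DCM changed order. Ccn1 passed under 10 of 15 alternatives and was also lost without DCM replicate 1 or 2, in the fit of all 9 libraries and with the GC correction (-0.46, adjusted p = 0.0729). Ccn2 passed under 10 of 15 and was also lost in both limma fits on FPKM and without CK replicate 2 or 3. By the same mean, the most abundant genes of the other lists were Stc2 (mean FPKM of 5.36, 6.34 and 6.97 in CK, DCM and SPM), H19, Ghr and Eif4ebp1, although M6pr stood above H19, Stat5b above Ghr and Akt1 above Eif4ebp1 in CK, and Stat5b above Ghr in DCM.

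**Figure D5:**
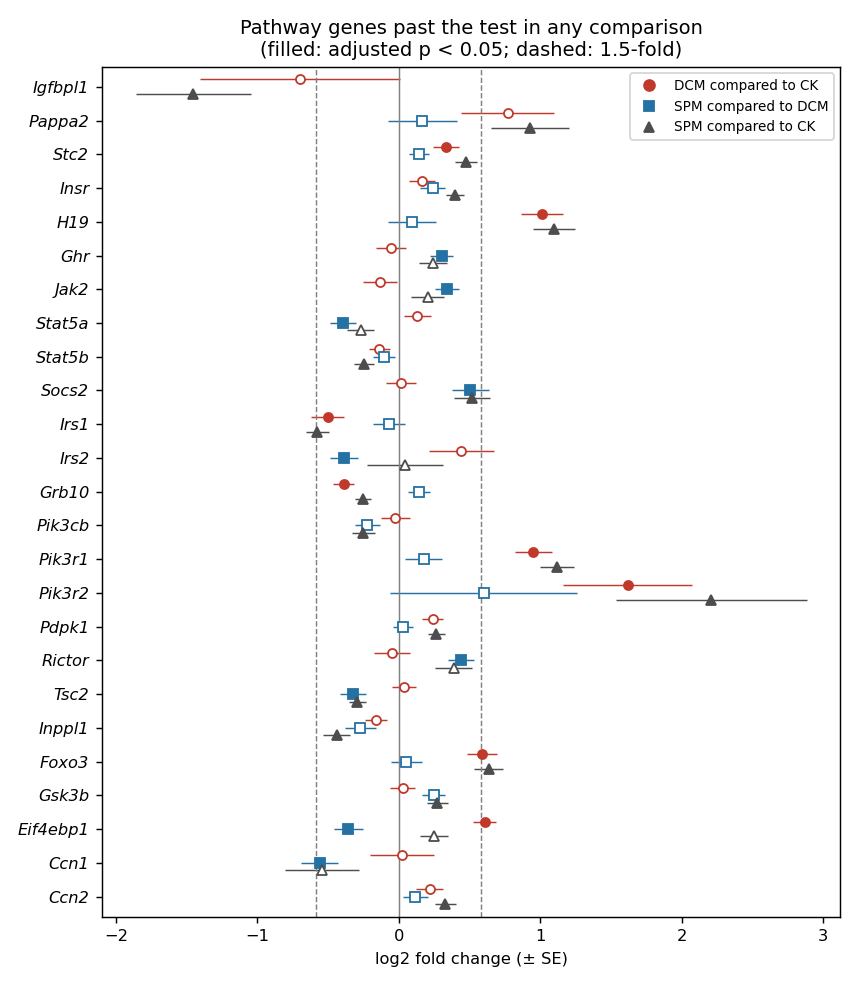
Log2 fold change with its SE (x axis) of the pathway genes that passed the test in at least 1 comparison (y axis), in DCM compared to CK (circles), SPM compared to DCM (squares) and SPM compared to CK (triangles), filled where the adjusted p was below 0.05. H19, Pik3r1, Pik3r2 and Foxo3 lie to the right past the 1.5-fold line in both comparisons with CK.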

How the data were processed

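Heart RNA libraries were assigned to CK, DCM and SPM by their deposited titles. The authors deposited a matrix of whole-number counts per gene and library, and FPKM values, in which each count is scaled by a fixed gene length and its library's total (largest relative deviation 8.6e-13). Reads had been filtered with fastp 0.18.0, and the submitters' processing notes name Bowtie 0.12.2 and the builds mm8 and mm9. Neither the annotation nor the counting strand is given in the sources used here, so antisense overlaps cannot be told apart. Coordinates are those of GENCODE M21 (GRCm38), and promoter windows are from RefSeq (GRCm38.p6), with no coordinate taken from the files.

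Counts were tested over all genes with edgeR 4.0.16 (R 4.3.3, filterByExpr, TMM, quasi-likelihood test), 2 groups (6 libraries) at a time. An adjusted p (Benjamini-Hochberg over all genes tested) below 0.05 passed the test, and a DEG also had a fold change of at least 1.5. The fit was first tested on simulated data with known changes. Likeness between genes is Pearson's r of log2 CPM with a prior of 0.5. FPKM was used for levels between genes and in limma 3.58.1 (pseudocounts 0.1 and 1). Python 3.11.15 with pandas 2.3.3, numpy 2.4.6 and matplotlib 3.10.9 made the tables and plots.

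The family members, pathway lists and marker lists were chosen with earlier results of these data known. Named are all members, the pathway genes that were DEGs in any comparison, the most abundant gene of each list, Igfbp1, Igfals, and the 3 genes most like Igf1, Igf1r and each DEG member. Other pathway genes that passed the test are named because their list had few of them, after their values were seen. A gene of the signalling list is not reported here. Polr2b was added for its overlap with Igfbp7. M6pr, Akt1 and the single endothelial, mural, fibroblast and mesothelial markers were also named after their values were seen.

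Alternatives were fold limits of 1.3 and none, DESeq2 1.42.0 (also with a fold limit of 1.3), RLE normalization, limma on FPKM, no low-count filter, a filter of 1 CPM in 3 libraries, a fit of all 9 libraries together, a replicate block, a GC correction (lowess span 0.3 as an offset) and each library left out. Residuals of libraries with the same number correlated between -0.12 and 0.18 and those of other numbers between -0.21 and 0.18. These ranges overlap, so no pairing by number was seen, but 3 libraries per group are too few to exclude one.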

Additional observations from a re-analysis of the deposited data

How the results depend on the processing

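The number of members that were DEGs in DCM compared to CK was 1 and became 2 with no fold limit. In SPM compared to DCM it was 0 and became 1 with a fold limit of 1.3 (1 also by DESeq2 with that limit) and 2 with no limit. In SPM compared to CK it was 2 and became 1 with the GC correction. With the replicate block these counts were 1, 0 and 3, the added gene being Igfbp6 (-0.60, edgeR adjusted p = 0.00437), and the blocked fit lost no member's DEG call.

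DEGs over the whole table numbered 625, 521 and 1342 in the same order. In DCM compared to CK they were 1100 with a fold limit of 1.3, 1497 with none and 1204 by DESeq2 with a limit of 1.3. In SPM compared to DCM they were 1299, 2410 and 1403 under those settings, 122 with the GC correction, 280 when DCM replicate 1 was left out, 73 without DCM replicate 2, 56 without replicate 2 of SPM and 791 without its replicate 3, and the causes were not tested. In SPM compared to CK they were 2532, 3989 and 2648 under the first 3 settings and 771 without SPM replicate 2.

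Signs turned only for values that had not passed the test. With the GC correction Igf1 turned to -0.094 in SPM compared to DCM and to -0.13 in SPM compared to CK, and Igf2r in SPM compared to CK was -0.0821 and -0.0801 in limma on FPKM. With each library left out, log2 fold changes that crossed 0 ranged from -0.264 to 0.0718 (Igf1, DCM compared to CK), -0.22 to 0.88, -0.49 to 0.67 and -0.18 to 1.00 (Igfbp2, in the order above), -0.14 to 0.25 (Igfbp5, SPM compared to DCM) and -0.0267 to 0.0472 (Igf2r, SPM compared to CK). Igfbp2, Igfbpl1, Pappa2 and Pik3r2 had low counts per library, which limits their precision, and counting error was not separated there from the spread between libraries.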
